A study of Mus musculus with 24 samples.

Results

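The peroxisome proliferator-activated receptors (PPARs), the retinoid X receptors (RXRs), the oestrogen-related receptors (ERRs) and the PGC-1 coactivators were followed through 2 settings, the differentiation of mouse embryonic stem (ES) cells toward cardiomyocytes and the maturation of the mouse heart. The 10 genes described were Ppara, Ppard, Pparg, Rxra, Rxrg, Ppargc1a, Ppargc1b, Esrra, Esrrg and Nrip1. They were chosen by name, with earlier results of these data known. Every gene-level row whose platform symbol was 1 of these names was taken. This gave 11 transcript clusters (the array's gene-level units) of 35556, for 10 of the 19920 genes tested. Ppargc1a had 2 clusters, of which the one with the higher mean was used.

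RNA was measured in 6 groups with 2 arrays each. They were undifferentiated ES cells at culture day 0, embryonic bodies at day 7, cardiac bodies at day 14, and whole hearts at E17.5 (an embryonic day), at P1 (the first day after birth) and in adults. The labels give no strain, sex, genotype, cell line or treatment for any group, and no age for the adults beyond the word. All 3 kinds of cultured cells came from ES cells grown in serum-containing medium. Nothing in the labels says that the 2 arrays of a group came from separate animals or cultures, so p-values measure only the spread between these samples, which may be technical.

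PPARs are nuclear receptors that bind fatty acids and their derivatives, pair with an RXR and switch on genes of lipid uptake and oxidation. ERRs have no known natural ligand that they need for activity. They bind single extended half-sites and, with PGC-1α (the product of Ppargc1a) or PGC-1β (of Ppargc1b) as coactivators, drive genes of mitochondrial energy production. RIP140, the product of Nrip1, is a corepressor of these receptors. The heart is known to turn from glucose and lactate to fatty acids as its main fuel after birth, and PPARα, ERRs and PGC-1 are known regulators of that programme.

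The deposited values are log2 signals, so a difference of 1 is a doubling of signal. Levels of different genes were not set against each other, because probes differ in their response. Array medians lay between 5.61 and 5.76, and the 2 arrays of a group correlated at 0.971 (P1) to 0.993 (ES cells) over all genes. The labelled tissues carried their markers. The mean of 8 cardiomyocyte genes was 12.1 to 12.8 in the hearts, 11.4 and 10.9 in cardiac bodies, 5.66 and 5.98 in embryonic bodies and 5.60 and 5.72 in ES cells. Cardiac bodies carried pluripotency genes, with a mean over 7 of 9.40 and 9.58. That mean was 10.3 and 10.3 in ES cells and 7.19 and 7.27 in embryonic bodies. The 2 embryonic body arrays differed in erythroid genes (mean 8.86 and 5.26) and in fibroblast genes (7.86 and 6.0).

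A gene was called where its adjusted p was under 0.05 in limma's moderated t-statistics (Benjamini-Hochberg over 19920 genes). From E17.5 to adult heart, 5 of the 10 genes rose and none fell, where 18.1% of all genes tested rose and 18% fell. The risers were Rxrg, Pparg, Ppard, Ppara and Ppargc1a. They included all 3 PPAR genes but neither ERR gene of the 10 (Esrrb, an ERR gene outside the 10, also rose). From P1 to adult the same 5 genes rose and Ppargc1b fell, where 15.6% of all genes rose and 14.7% fell. From E17.5 to P1 only Ppargc1b was called, as higher, where 2.08% of all genes rose and 3.05% fell. The 3 comparisons share arrays with one another, so their calls are not independent.

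**Figure D1:**
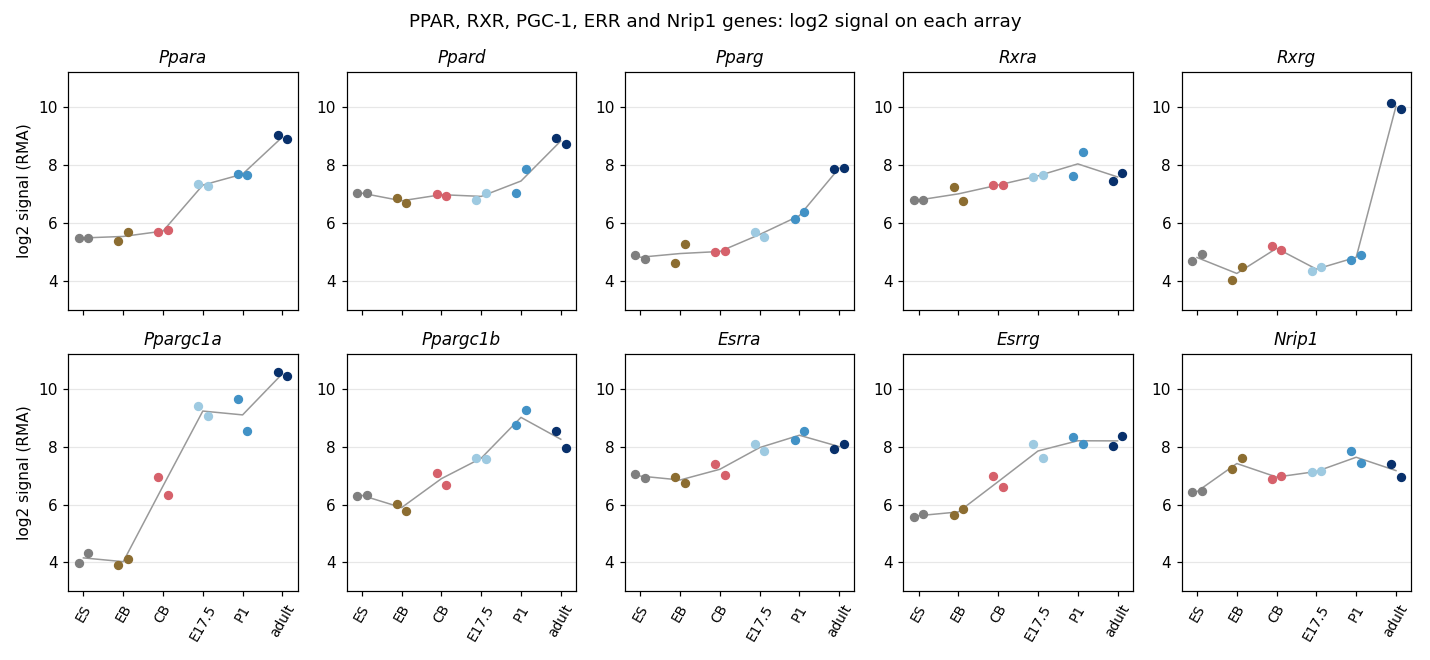
Log2 signal of each gene on each of the 12 arrays (points, 2 per group), with a grey line through the group means; the groups run from ES cells, embryonic bodies (EB) and cardiac bodies (CB) to hearts at E17.5, P1 and adult age. Rxrg is near 10 only in adult hearts, and Ppargc1a has the widest span of group means, 6.48.

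Ppara encodes the PPAR of fatty acid oxidation in heart and liver. Its log2 signal was 5.48 and 5.46 in ES cells, 5.37 and 5.68 in embryonic bodies, 5.68 and 5.73 in cardiac bodies, 7.32 and 7.27 in E17.5 hearts, 7.69 and 7.65 in P1 hearts, and 9.01 and 8.89 in adult hearts. Every heart array was above every array of cultured cells, and the 3 heart stages did not overlap. In adult against E17.5 hearts the difference was 1.66 ± 0.16 (SE, n = 2 each, limma adjusted p = 8.29e-06), a 3.16-fold signal. Adult against P1 gave 1.28 ± 0.16 (adjusted p = 9.86e-05), and P1 against E17.5 gave 0.38 ± 0.16, which was not called (adjusted p = 0.235).

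Ppard encodes the broadly expressed PPARδ, which shares many oxidation targets with PPARα in muscle. Its signal was 7.02 and 7.01 in ES cells, 6.84 and 6.67 in embryonic bodies, 6.99 and 6.93 in cardiac bodies, 6.79 and 7.02 in E17.5 hearts, 7.03 and 7.84 in P1 hearts, and 8.90 and 8.73 in adult hearts. The adult arrays stood above all 10 others, which, P1 replicate 2 aside, lay within 6.67 and 7.03. Adult hearts were higher than E17.5 hearts by 1.91 ± 0.23 (SE, limma adjusted p = 4.18e-05) and than P1 hearts by 1.38 ± 0.23 (adjusted p = 7.14e-04). P1 against E17.5 was not called, at 0.53 ± 0.23 (adjusted p = 0.243), but without P1 replicate 1 the difference was 0.93 and was called (adjusted p = 0.00649).

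Pparg encodes the PPAR that directs fat cell formation. Its signal was 4.87 and 4.74 in ES cells, 4.60 and 5.26 in embryonic bodies, 4.99 and 5.02 in cardiac bodies, 5.66 and 5.52 in E17.5 hearts, 6.12 and 6.35 in P1 hearts, and 7.87 and 7.90 in adult hearts. The heart stages followed each other without overlap, and all heart arrays were above the cultured cells. The adult difference was 2.29 ± 0.21 (SE, limma adjusted p = 4.71e-06, 4.90-fold) against E17.5 and 1.64 ± 0.21 (adjusted p = 9.72e-05) against P1. P1 minus E17.5 was 0.65 ± 0.21, which was not called (adjusted p = 0.101).

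Since Pparg is a fat cell gene and the hearts were whole organs, fat cell markers are given beside it. In bulk tissue, fewer cells of a type and less RNA per cell cannot be told apart. Of 12 adipocyte target genes of PPARγ, 6 rose from E17.5 to adult and none fell, where 18.1% of all genes rose and 18% fell. The median difference was 0.56 against 0.05 over all genes. The largest were Aqp7, a glycerol channel that cardiomyocytes also use (4.76 ± 0.24), Agpat2, an enzyme of glycerolipid synthesis (2.07 ± 0.19), Fabp4, a fatty acid carrier of fat cells, capillary endothelium and macrophages (1.87 ± 0.23), and Adipoq, the fat cell hormone adiponectin (1.11 ± 0.22). Adipoq stayed low in signal, at 4.18 and 4.93 in adult hearts against 3.38 and 3.52 in E17.5 hearts. Ucp1, the brown fat uncoupling protein, gave 4.78 and 5.21 in adult hearts against 4.61 and 5.04 in E17.5 hearts. The mean of the 8 fat and brown fat markers was 5.74 and 6.15 in adult hearts against 5.18 and 5.29 in E17.5 hearts. Its part in the rise of Pparg was not tested.

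Other cell type markers in adult against E17.5 hearts are read against the 18.1% of all genes that rose and the 18% that fell. Their part in the results on the 10 genes was not tested. All 7 macrophage markers rose (mean 8.27 and 8.42 in adult hearts against 6.54 and 6.43 in E17.5 hearts). Of the 8 fibroblast markers 5 fell and 1 rose (mean 8.50 and 8.82 in adult hearts against 10.0 and 10.2 in E17.5 hearts). Of the 8 cardiomyocyte markers 2 rose and 1 fell (mean 12.5 and 12.4 in adult hearts against 12.3 and 12.1 in E17.5 hearts). Their median difference was 0.06 against 0.05 over all genes. Of the 6 smooth muscle markers 3 fell and 1 rose, and of the 5 erythroid markers 2 fell.

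Rxrg encodes RXRγ, the RXR best known from skeletal muscle, heart and brain. Its signal was 4.67 and 4.92 in ES cells, 4.03 and 4.46 in embryonic bodies, 5.18 and 5.04 in cardiac bodies, 4.32 and 4.47 in E17.5 hearts, 4.72 and 4.89 in P1 hearts, and 10.11 and 9.91 in adult hearts. The other 10 arrays lay within 4.03 and 5.18, far below both adult arrays. Adult hearts were higher than E17.5 hearts by 5.62 ± 0.19 (SE, n = 2 each, limma adjusted p = 1.37e-08), a 49.0-fold signal, and than P1 hearts by 5.21 ± 0.19 (adjusted p = 2.55e-08). Among the 19920 genes, Rxrg had the lowest p in both comparisons, with the 3rd largest rise against E17.5 and the 4th largest against P1. Signals were not tested against background, so whether Rxrg RNA was present at all before adult age was not tested.

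Rxra encodes RXRα, the main RXR partner in embryonic heart. Its signal was 6.76 and 6.79 in ES cells, 7.22 and 6.76 in embryonic bodies, 7.28 and 7.31 in cardiac bodies, 7.58 and 7.65 in E17.5 hearts, 7.62 and 8.43 in P1 hearts, and 7.44 and 7.71 in adult hearts. The P1 arrays differed by 0.81, more than adult and E17.5 means did. The adult minus E17.5 difference was -0.04, with a 95% interval of -0.57 to 0.50. Rxra was called in none of the 7 comparisons, where 1 to 6 of the 10 genes were. Without P1 replicate 1 it was higher in P1 than in E17.5 hearts by 0.82 (limma adjusted p = 0.0273) and lower in adult than in P1 hearts (-0.86, adjusted p = 0.0123). Rxrb, the remaining RXR gene, was also uncalled in all 7, with an adult minus E17.5 difference of -0.04 ± 0.18.

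Of 10 other nuclear receptors that pair with RXR, 5 rose from E17.5 to adult and none fell, with a median of 0.52 against 0.05 over all genes. Thrb, the thyroid hormone receptor β gene, rose by 3.10 ± 0.22 (SE, limma adjusted p = 7.39e-07) and averaged 7.38 in adult hearts against 4.28 in E17.5 hearts. Vdr, the vitamin D receptor gene, rose by 1.37 ± 0.27, Nr1h3, which encodes the oxysterol receptor LXRα, by 1.24 ± 0.20, Nr4a2 by 0.86 ± 0.17 and Rarg, a retinoic acid receptor gene, by 0.76 ± 0.23. In the retinoic acid pathway, 3 of 11 genes rose and 1 fell (median 0.13 against 0.05 over all genes), where 18.1% of all genes rose and 18% fell. Aldh1a2, the embryonic enzyme that makes retinoic acid, fell by 2.16 on the log2 scale (SE 0.20), while Aldh1a1, a related enzyme, rose by 1.63 ± 0.24, Dhrs3, a retinal reductase, by 1.60 ± 0.24 and Stra6, the receptor for retinol-binding protein, by 0.93 ± 0.21.

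Promoter sequences are shown for Rxrg and Pparg, the genes with the largest adult rises, and for Rxra, the RXR gene without one. They come from RefSeq (GRCm38.p6), run from 250 bases before to 50 after an annotated start, and lie on the + strand. Capitals mark AGGTCA, the nuclear receptor half-site, found on either strand. Rxrg has 2 windows, at chr1:167598112-167598411 and chr1:167618015-167618314, and Pparg 3, of which those at chr6:115360894-115361193 and chr6:115362099-115362398 hold a match. The second Rxra window is at chr2:27709042-27709341.
Rxrg window 1: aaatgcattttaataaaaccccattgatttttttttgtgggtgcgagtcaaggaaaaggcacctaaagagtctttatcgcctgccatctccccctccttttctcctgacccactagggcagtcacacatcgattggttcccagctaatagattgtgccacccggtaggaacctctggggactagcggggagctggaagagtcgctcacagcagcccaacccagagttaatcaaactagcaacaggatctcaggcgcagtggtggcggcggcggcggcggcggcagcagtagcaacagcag
Rxrg window 2: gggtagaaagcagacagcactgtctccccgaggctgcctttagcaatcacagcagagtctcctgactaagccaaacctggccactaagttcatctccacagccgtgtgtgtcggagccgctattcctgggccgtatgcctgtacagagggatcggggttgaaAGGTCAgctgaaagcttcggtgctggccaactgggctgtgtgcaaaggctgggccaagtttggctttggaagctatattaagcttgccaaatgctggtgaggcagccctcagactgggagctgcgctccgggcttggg
Pparg window 1: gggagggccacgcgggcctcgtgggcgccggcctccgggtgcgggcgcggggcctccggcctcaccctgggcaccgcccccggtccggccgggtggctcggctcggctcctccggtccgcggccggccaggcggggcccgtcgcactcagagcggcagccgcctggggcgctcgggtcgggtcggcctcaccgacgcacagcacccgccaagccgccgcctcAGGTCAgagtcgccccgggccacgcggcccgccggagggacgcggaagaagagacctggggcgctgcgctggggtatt
Pparg window 2: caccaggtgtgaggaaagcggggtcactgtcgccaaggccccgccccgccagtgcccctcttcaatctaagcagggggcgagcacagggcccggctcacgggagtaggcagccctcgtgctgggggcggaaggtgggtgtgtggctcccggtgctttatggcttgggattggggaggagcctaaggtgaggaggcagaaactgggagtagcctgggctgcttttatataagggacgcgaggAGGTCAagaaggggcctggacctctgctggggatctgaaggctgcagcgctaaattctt
Rxra window 2: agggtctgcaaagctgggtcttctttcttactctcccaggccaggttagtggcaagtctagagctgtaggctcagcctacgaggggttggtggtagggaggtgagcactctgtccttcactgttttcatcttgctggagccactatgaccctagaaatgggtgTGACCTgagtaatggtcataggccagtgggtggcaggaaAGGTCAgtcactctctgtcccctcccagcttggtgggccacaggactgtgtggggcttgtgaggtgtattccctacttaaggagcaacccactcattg

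The match lies 88 bases before the start in Rxrg window 2, 28 before in Pparg window 1 and 9 before in Pparg window 2. Rxra window 2 holds 2 matches, 87 bases before the start on the minus strand and 48 before on the plus strand. In all, 17 windows of 9 of the 10 genes were searched, and 4 held AGGTCA, against 16.3% of 32851 RefSeq windows of the same length. None held TNAAGGTCA, the extended half-site of ERRs (1.28% of all windows), 2 half-sites spaced by a single base (AGGTCANAGGTCA, the PPAR and RXR element, 0.0396%) or TGACGTCA, the cyclic AMP response element (1.79%). GGGCGG, the GC box, was in 9 of the 17 windows against 35.7% of all. Both strands were searched, and a TNAAGGTCA or AGGTCANAGGTCA match would contain an AGGTCA match. The windows' GC content ran from 40.3% to 83.0%. A match says only that these letters are present.

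Ppargc1a encodes PGC-1α, the inducible coactivator of PPARs and ERRs. Its signal was 3.99 and 4.33 in ES cells, 3.92 and 4.13 in embryonic bodies, 6.96 and 6.31 in cardiac bodies, 9.39 and 9.05 in E17.5 hearts, 9.63 and 8.55 in P1 hearts, and 10.59 and 10.44 in adult hearts. Cardiac bodies stood between the earlier cultures and the hearts, without overlap on either side. The P1 arrays were 1.08 apart, the widest gap within a group for any of the 10 genes, and lay on both sides of the E17.5 arrays.

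Adult hearts exceeded E17.5 hearts in Ppargc1a by 1.29 ± 0.32 (SE, limma adjusted p = 0.00655, 2.44-fold) and P1 hearts by 1.42 ± 0.32 (adjusted p = 0.00452). P1 minus E17.5 was -0.13, with a 95% interval of -0.82 to 0.55. The call in adult against E17.5 was lost without E17.5 replicate 2 (1.12, adjusted p = 0.062) and with the mean of both clusters (0.95, adjusted p = 0.0561). The unused cluster gave 9.01 and 8.97 in adult hearts against 8.67 and 8.07 in E17.5 hearts, also without overlap.

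Ppargc1b encodes PGC-1β, a relative of PGC-1α that is linked to the maintenance of mitochondrial mass. Its signal was 6.29 and 6.34 in ES cells, 6.02 and 5.76 in embryonic bodies, 7.10 and 6.68 in cardiac bodies, 7.62 and 7.57 in E17.5 hearts, 8.74 and 9.27 in P1 hearts, and 8.54 and 7.96 in adult hearts. The P1 arrays were the highest of all 12. P1 hearts exceeded E17.5 hearts by 1.41 ± 0.24 (SE, limma adjusted p = 0.00459, 2.65-fold), and adult hearts were lower than P1 hearts (-0.75 ± 0.24, adjusted p = 0.0315). Adult against E17.5 gave 0.65 ± 0.24, just outside the threshold (adjusted p = 0.0501), and was called in 5 of the 18 alternatives. The P1 rise was lost without either E17.5 array (adjusted p = 0.0527 and 0.0552). The adult fall was lost without P1 replicate 2 (-0.49, adjusted p = 0.2) and without adult replicate 2 (-0.46, adjusted p = 0.251). Pprc1, which encodes the related coactivator PRC, fell in adult hearts against E17.5 hearts (-0.83 ± 0.27, adjusted p = 0.0312).

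Esrra encodes ERRα. Its signal was 7.04 and 6.93 in ES cells, 6.96 and 6.74 in embryonic bodies, 7.40 and 7.03 in cardiac bodies, 8.10 and 7.83 in E17.5 hearts, 8.23 and 8.55 in P1 hearts, and 7.91 and 8.08 in adult hearts. Adult and E17.5 arrays overlapped, with a difference of 0.03 and a 95% interval of -0.39 to 0.46. P1 arrays were above both other heart stages, but neither difference was called (0.43 ± 0.20 against E17.5, limma adjusted p = 0.273, and adult minus P1 -0.39 ± 0.20, adjusted p = 0.158).

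Esrrg encodes ERRγ, which in mice is needed for oxidative metabolism of the newborn heart. Its signal was 5.56 and 5.67 in ES cells, 5.65 and 5.84 in embryonic bodies, 6.97 and 6.61 in cardiac bodies, 8.09 and 7.61 in E17.5 hearts, 8.31 and 8.09 in P1 hearts, and 8.03 and 8.36 in adult hearts. All 3 heart stages overlapped with each other, and all lay above the cultures. Adult minus E17.5 was 0.35, with a 95% interval of -0.11 to 0.81 (limma adjusted p = 0.231).

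Esrrb, the ERR gene outside the 10 and a known pluripotency factor, differed from both. It gave 10.07 and 9.89 in ES cells, 6.5 and 6.28 in embryonic bodies, 8.81 and 8.81 in cardiac bodies, 5.72 and 5.81 in E17.5 hearts, 5.84 and 6.61 in P1 hearts, and 7.18 and 6.36 in adult hearts. It was highest in ES cells, and it rose in adult against E17.5 hearts (1.00 ± 0.28, limma adjusted p = 0.0135).

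Nrip1 gave 6.42 and 6.46 in ES cells, 7.24 and 7.59 in embryonic bodies, 6.90 and 7.00 in cardiac bodies, 7.11 and 7.17 in E17.5 hearts, 7.84 and 7.42 in P1 hearts, and 7.40 and 6.94 in adult hearts. It had the narrowest span of group means among the 10 genes, 1.19, and its ES arrays were the lowest 2. Adult minus E17.5 was 0.03, with a 95% interval of -0.42 to 0.48. Adult minus P1 was -0.46 ± 0.21 and was not called (limma adjusted p = 0.12).

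**Figure D2:**
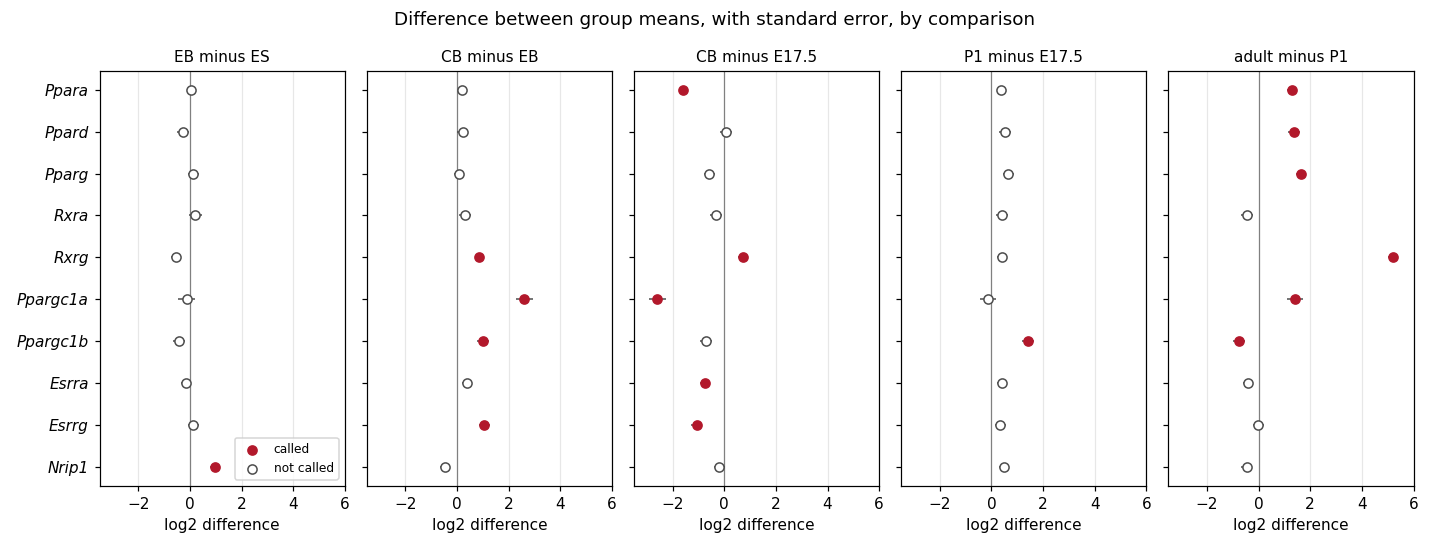
Log2 difference (first named group minus second) of each gene in 5 comparisons, with the standard error as a bar; filled points were called at a limma adjusted p under 0.05 and open points were not. The PPAR genes, Rxrg and Ppargc1a are filled on the right in adult minus P1, and Ppargc1b is the single filled point in P1 minus E17.5.

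PPAR target genes of lipid use are given by heart stage beside the PPAR genes. Of 28 measured, 18 rose from E17.5 to P1 and none fell, where 2.08% of all genes rose and 3.05% fell. The list median was 1.12 against 0.01 over all genes. None of the 3 PPAR genes was called in that comparison. All 3 were higher at P1 without overlap, by 0.38 ± 0.16 (Ppara), 0.53 ± 0.23 (Ppard) and 0.65 ± 0.21 (Pparg). From P1 to adult 4 rose and 11 fell, where 15.6% of all genes rose and 14.7% fell. The median was -0.25 against 0.04, in the comparison in which all 3 PPAR genes rose. Adult against E17.5 gave 15 risers and 3 fallers (median 0.70), where 18.1% of all genes rose and 18% fell. The first 2 comparisons share the P1 arrays, and a P1 level that is high by error would push them in opposite ways. The relation between the PPAR genes and these targets was not tested.

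Ucp3, a mitochondrial carrier induced by fatty acids, averaged 7.96 in P1 hearts against 4.61 in E17.5 hearts (3.35 ± 0.18, limma adjusted p = 3.19e-06), and 7.63 in adult hearts. Pdk4, the kinase that shuts pyruvate out of oxidation, was 2.57 ± 0.21 higher in P1 than in E17.5 hearts, Slc27a1, a fatty acid transporter, 2.58 ± 0.18, and Plin5, a lipid droplet protein, 2.03 ± 0.20. None of these 4 was called from P1 to adult, at differences of -0.33 to 0.32. Pnpla2, the triglyceride lipase, rose in both steps, by 1.79 ± 0.27 and 1.12 ± 0.27.

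Other target genes peaked at P1. Cpt1a, the liver-type gate of mitochondrial fatty acid entry, averaged 10.19 in P1 hearts against 8.35 in E17.5 hearts (1.84 ± 0.18, limma adjusted p = 9.6e-05) and fell in adult against P1 hearts (-1.22 ± 0.18, adjusted p = 2.92e-04). Angptl4, a secreted inhibitor of lipoprotein lipase, changed by 2.90 ± 0.21 from E17.5 to P1 and by -2.66 ± 0.21 from P1 to adult, and Acot1, an acyl-CoA thioesterase, by 1.99 ± 0.21 and -2.59 ± 0.21. These last 2 were picked after their values were seen.

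Of 30 measured mitochondrial target genes of ERRs and PGC-1, 2 rose from E17.5 to P1 (Ckmt2, the mitochondrial creatine kinase of muscle, and Mfn2, a fusion protein) and none fell. Over all genes 2.08% rose and 3.05% fell in that step. From P1 to adult 6 rose and 8 fell, where 15.6% of all genes rose and 14.7% fell. Adult against E17.5 gave 9 risers and 6 fallers, where 18.1% and 18% of all genes rose and fell, with a median of 0.09 against 0.05 over all genes. Ckmt2 rose most in adult against E17.5 hearts, by 3.84 ± 0.19 (limma adjusted p = 5.19e-08), followed by Cox6a2, the muscle form of a cytochrome oxidase subunit (2.04 ± 0.29), and Cycs, cytochrome c (1.56 ± 0.21). Ogdh, an enzyme of the citric acid cycle, rose by 1.16 ± 0.21. Tfam, the factor that packs and transcribes mitochondrial DNA, fell (-1.27 ± 0.24, adjusted p = 0.00126).

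**Figure D3:**
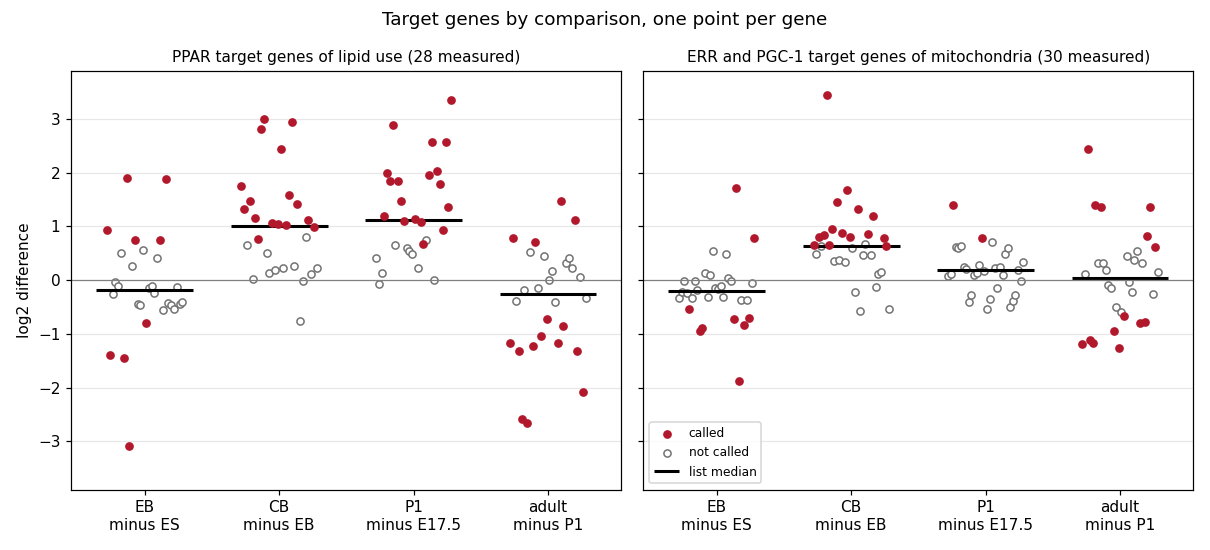
Log2 difference (first named group minus second) of each measured gene of 2 target lists in 4 comparisons, 1 point per gene, filled where called, with the list median as a black bar. PPAR lipid targets lie mostly above 0 in CB minus EB and P1 minus E17.5 and spread to both sides in adult minus P1.

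Among 19 coregulators of nuclear receptors, 7 rose and 2 fell from E17.5 to adult heart, where 18.1% of all genes rose and 18% fell. The list median was 0.56 against 0.05 over all genes. Lpin1, a phosphatidate phosphatase that also coactivates PPARα with PGC-1α, rose by 2.96 ± 0.20 (limma adjusted p = 5.45e-07) and averaged 9.81 in adult hearts against 6.86 in E17.5 hearts. The histone acetyltransferase gene Ep300 rose by 1.42 ± 0.22, the coactivator gene Ncoa1 by 1.26 ± 0.18 and the arginine methyltransferase gene Carm1 by 1.1 ± 0.26. Prmt1, another arginine methyltransferase gene, fell (-2.45 ± 0.21, adjusted p = 3.15e-06). Of 15 upstream inputs to PGC-1 and PPAR, 4 rose and none fell (median 0.37 against 0.05), where 18.1% of all genes rose and 18% fell. These were Mef2d, a muscle transcription factor (1.81 ± 0.26), Mapk14, the p38 kinase (1.38 ± 0.16), Ppp3cb, a calcineurin subunit (0.85 ± 0.19), and Stk11, the kinase that activates AMPK (0.70 ± 0.17).

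In culture, 4 of the 10 genes rose from embryonic to cardiac bodies and none fell, where 5.45% of all genes rose and 6.43% fell. Ppargc1a rose by 2.61 ± 0.32 (SE, n = 2 each, limma adjusted p = 1.76e-04, 6.11-fold), Esrrg by 1.05 ± 0.21 (adjusted p = 0.00629), Ppargc1b by 1.00 ± 0.24 (adjusted p = 0.0172) and Rxrg by 0.87 ± 0.19 (adjusted p = 0.0103). The Rxrg values were the low ones, 5.18 and 5.04 in cardiac bodies against 4.03 and 4.46 in embryonic bodies. None of the 3 PPAR genes was called, with differences of 0.07 to 0.21. Without cardiac body replicate 1 only Ppargc1a was still called. Beside these rises, all 8 cardiomyocyte markers and 6 of 7 pluripotency markers rose in the same comparison. In it 6 of 8 endothelial, 4 of 5 simple epithelium (median -3.76) and 3 of 5 erythroid markers (median -2.48) fell. The endothelial marker Pecam1 rose by 1.44 ± 0.26. The erythroid mean differed between the 2 embryonic body arrays (8.86 and 5.26). Of 7 endoderm and liver markers 2 rose, 1 fell and 4 were not called (median -0.09 against -0.01 over all genes). Afp and Alb, genes of endoderm and fetal liver, rose by 4.94 ± 0.24 and 4.47 ± 0.17, while Sox17 fell (-2.12 ± 0.25). The part of these markers was not tested.

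Against ES cells, cardiac bodies were higher in Ppargc1a by 2.48 ± 0.32 (limma adjusted p = 2.83e-04) and in Esrrg by 1.18 ± 0.21 (adjusted p = 0.0034), and no other member was called, where 6.19% of all genes rose and 3.61% fell. The Esrrg call was lost without cardiac body replicate 1 (1.00, adjusted p = 0.0546). In embryonic bodies against ES cells only Nrip1 was called, as higher by 0.97 ± 0.21 (adjusted p = 0.00526), where 12% of all genes rose and 8.61% fell. The Rxrg difference there was -0.55 ± 0.19 and was not called (adjusted p = 0.0621). Cell type markers moved in both comparisons, and their part was not tested. In cardiac bodies against ES cells all 8 cardiomyocyte and 3 of 6 smooth muscle markers rose, and 5 of 7 pluripotency markers fell. In embryonic bodies against ES cells 6 of 7 pluripotency markers fell (median -3.55). In the same comparison 6 of 8 endothelial (median 2.14), 6 of 8 fibroblast, 3 of 5 simple epithelium (median 3.33) and 3 of 5 erythroid markers rose. Of the endothelial markers 1 fell. The 2 embryonic body arrays differed in erythroid (mean 8.86 and 5.26) and fibroblast markers (7.86 and 6.0).

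PPAR lipid targets rose in cardiac against embryonic bodies in 16 of 28 cases, with none called as lower. Over all genes 5.45% rose and 6.43% fell. The list median was 1.01 against -0.01 over all genes. Cpt1a rose by 3.01 ± 0.18 (limma adjusted p = 6.74e-07), and its embryonic body mean of 5.04 was also below the ES mean of 8.13. Lpl, lipoprotein lipase, rose by 2.94 ± 0.29, Cd36, a fatty acid transporter, by 2.82 ± 0.50, Fabp3, the heart fatty acid carrier, by 2.44 ± 0.18, and Acadl, an acyl-CoA dehydrogenase, by 1.75 ± 0.22. Of the 30 mitochondrial targets, 15 rose and none fell (median 0.64), led by Cox6a2 at 3.45 ± 0.29, Mfn2 at 1.67 ± 0.20 and Idh3a, a citric acid cycle enzyme, at 1.46 ± 0.21. Both lists are also set against ES cells, with arrays shared between the comparisons. In cardiac bodies against ES cells 14 lipid targets rose and none fell (median 0.69), and 7 mitochondrial targets rose and 2 fell (median 0.44). Over all genes 6.19% rose and 3.61% fell there. In embryonic bodies against ES cells 5 lipid targets rose and 4 fell, and 2 mitochondrial targets rose and 7 fell. The shares over all genes in that comparison were 12% and 8.61%. Idh3a averaged 9.95 in ES cells, 9.05 in embryonic bodies and 10.50 in cardiac bodies.

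The other lists in cardiac against embryonic bodies are read against the 5.45% of all genes that rose and the 6.43% that fell. Of 12 adipocyte targets 1 rose (Cidea, a lipid droplet protein, 1.21 ± 0.21), and of 10 RXR partners 1 rose (Rarg, 1.30 ± 0.23). In the retinoic acid pathway 3 of 11 fell, Cyp26a1, which breaks retinoic acid down, by 3.62 on the log2 scale (SE 0.44), Rdh10, which makes its precursor, by 1.70 (SE 0.34) and Crabp2, its carrier, by 1.49 (SE 0.25). Of 19 coregulators 4 rose and 1 fell, with Ncoa3, a coactivator, at 1.34 ± 0.22. Of 15 upstream inputs 2 fell, Creb1, which switches Ppargc1a on in response to cyclic AMP (-0.99 ± 0.30), and Ppp3cb (-0.91 ± 0.19).

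Cardiac bodies were then set against E17.5 hearts, the youngest hearts measured. Of the 10 genes 4 were lower and 1 higher in cardiac bodies, where 11.6% of all genes were lower and 12.1% higher. Ppargc1a was lower (-2.58 ± 0.32, limma adjusted p = 9.53e-05), as were Ppara (-1.59 ± 0.16, adjusted p = 2.54e-05), Esrrg (-1.06 ± 0.21, adjusted p = 0.00303) and Esrra (-0.75 ± 0.20, adjusted p = 0.0142). Rxrg was higher by 0.72 ± 0.19 (adjusted p = 0.0154). The calls of Rxrg and Esrra were lost in some leave-one-out fits, for Rxrg at adjusted p of 0.05 to 0.108 without either array of both groups, and for Esrra at 0.159 without cardiac body replicate 2 and 0.122 without E17.5 replicate 1. Ppargc1b (-0.71 ± 0.24, adjusted p = 0.0511) and Pparg (-0.59 ± 0.21, adjusted p = 0.0619) were just outside the threshold, and were called as lower in 7 and 6 of the 18 alternatives. Of 28 PPAR lipid targets 15 were lower in cardiac bodies and none higher (median -0.78), and of 30 mitochondrial targets 14 were lower and 1 higher (median -0.54). All 8 fibroblast, all 8 endothelial and 5 of 8 cardiomyocyte markers were lower in cardiac bodies too, as were 6 of 7 macrophage and 3 of 6 smooth muscle markers. Pluripotency markers were higher in 6 of 7 cases (median 5.49, the mean being 9.40 and 9.58 in cardiac bodies against 4.79 and 4.83 in E17.5 hearts). All 5 simple epithelium markers (median 1.85), 4 of 7 endoderm and liver markers (1 was lower) and 4 of 6 neural markers were higher too. The part of these markers in the differences was not tested.

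The same samples were deposited at exon level, with 116 probe sets (groups of probes, mostly within an exon) for the 10 genes. Both adult arrays were above both E17.5 arrays in 14 of 16 probe sets of Ppargc1a, 11 of 12 of Rxrg, 11 of 13 of Pparg, 9 of 11 of Ppara and 8 of 11 of Ppard, where this held for 31.5% of all 205421 probe sets. For Rxra it was 6 of 15, for Ppargc1b 7 of 14, for Esrrg 5 of 9, for Nrip1 2 of 7 and for Esrra 1 of 8. Both cardiac body arrays were above both embryonic body arrays in 13 of 16 probe sets of Ppargc1a, 10 of 12 of Rxrg, 10 of 14 of Ppargc1b, 8 of 8 of Esrra and 7 of 9 of Esrrg, against 20.5% of all. For Rxra it was 7 of 15, for Ppara 4 of 11, for Ppard 3 of 11, for Pparg 1 of 13 and for Nrip1 1 of 7, with 4 of 7 below. Probe sets of 1 gene share their samples and are not replicates.

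**Figure D4:**
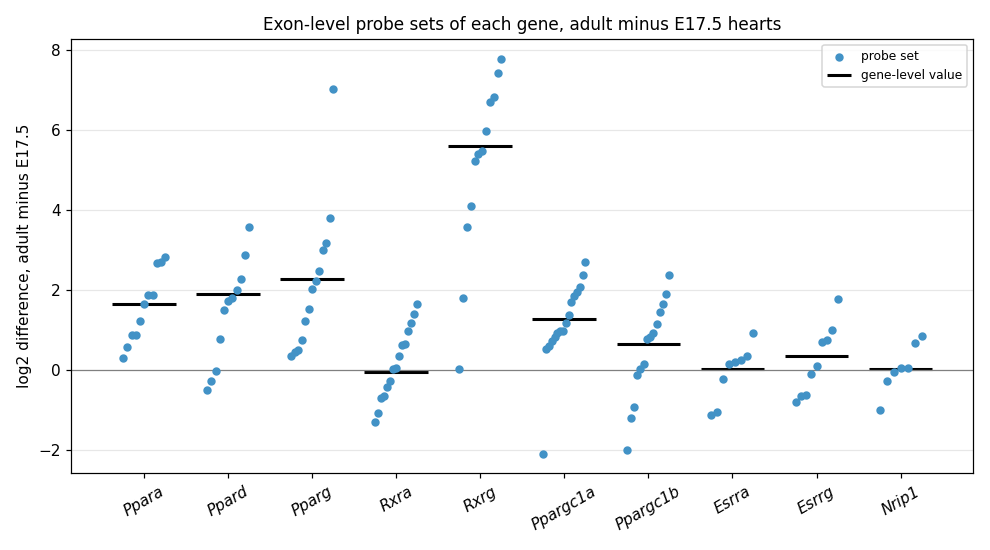
Log2 difference, adult minus E17.5 hearts, of each exon-level probe set (points) of the 10 genes, with the gene-level value as a black bar. The points of Rxrg lie between 0.03 and 7.79, those of Rxra fall on both sides of 0, and 1 probe set of Pparg stands at 7.02.

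Probe sets within a gene differed widely. In Rxrg, probe set 10351434 gave 11.39 and 10.87 in adult hearts against 3.14 and 3.54 in E17.5 hearts, and probe set 10351432 gave 7.65 and 6.53 in adult hearts against 6.88 and 7.24 in E17.5 hearts. In Pparg, probe set 10540901 stood at 2.95 and 3.22 in E17.5 hearts, 4.92 and 5.60 in P1 hearts and 10.01 and 10.21 in adult hearts, a difference of 7.02 for adult against E17.5, while the other 12 ranged up to 3.80. Their exons were not identified here.

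The splicing index, a probe set's log2 signal less the log2 signal of the gene, was tested in adult against E17.5 hearts for 78 of the 116 probe sets, those passing the filters on level. Rxrg and Pparg had none that passed, since their gene signal at E17.5 was under the filter. With an adjusted p under 0.05 and a change of at least 1, 21 of the 78 were called, or 26.9%, in all 8 genes that had tested probe sets, where 18.4% of all 95212 tested were called. Without E17.5 replicate 2 only 9 were called, and without adult replicate 1 only 11. In cardiac bodies against ES cells none of 34 tested was called by limma, 2 had an unadjusted p under 0.05, and 0.217% of all 92566 were called.

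Some probe sets changed differently from their gene. In Ppard, probe set 10443336 gave 9.07 and 8.74 in adult hearts against 9.34 and 9.02 in E17.5 hearts, which overlapped. Its own difference was -0.28 while the gene rose by 1.91, an index change of -2.19 ± 0.27 (SE, limma adjusted p = 0.00112). It also gave 9.07 and 9.09 in ES cells, and whether it responds to the transcript was not tested. Probe set 10443338 rose with the gene and by more, at 10.11 and 9.78 in adult hearts against 6.37 and 6.35 in E17.5 hearts (1.67 ± 0.37, adjusted p = 0.0131). The gene signal of Ppargc1b was higher in adult hearts by 0.65, which was not called. Its probe set 10459198 was lower, at 6.05 and 4.38 in adult hearts against 6.68 and 7.74 in E17.5 hearts (-2.65 ± 0.44, adjusted p = 0.00385). Probe set 10459205 was higher by more than the gene, at 10.17 and 10.43 in adult hearts against 8.47 and 8.29 in E17.5 hearts (1.27 ± 0.39, adjusted p = 0.0455). In Rxra, whose gene signal was not called, 10470453 was higher in adult hearts, at 8.92 and 8.62 against 6.86 and 7.37 in E17.5 hearts (1.70 ± 0.29, adjusted p = 0.004), and 10470457 lower, at 6.88 and 6.89 against 8.15 and 8.21 (-1.26 ± 0.21, adjusted p = 0.00421). These probe sets were picked after their values were seen.

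The genes also differed in which others they followed over the 12 arrays, given as Pearson's r with no test, since all share the same 6 groups. Among the 45 pairs of the 10 genes, r was highest for Ppargc1a with Esrrg (0.979), Ppargc1b with Esrra (0.958) and Ppara with Pparg (0.952). It was lowest for Rxrg with Nrip1 (0.013), Ppard with Nrip1 (0.084) and Rxra with Rxrg (0.197). Among 9889 genes whose group means span at least 1, the closest to Ppargc1a were Akap6 (0.998), Corin (0.997) and Pde4dip (0.992), and to Ppara Cd200 (0.995), Ckmt2 (0.994) and Smpdl3a (0.991). Rxrg was closest to BC023105 (0.994), Slc25a35 (0.992) and Smim8 (0.991), Ppard to Fmnl1, Mlxipl and Kxd1 (0.990 to 0.993), and Pparg to Rnf150, Nceh1 and Htra3 (0.986 to 0.992). Esrrg was closest to Cacna1c, Acaa2 and Myzap (all 0.989), Ppargc1b to Acacb, Casz1 and Trak1 (0.982 to 0.985), and Esrra to Ltbp3, Cyp2u1 and Macrod1 (0.977 to 0.983). The closest genes were less close for Rxra (Iqsec1 0.958, Micall1 0.949, Efnb3 0.948) and Nrip1 (Ankrd50 0.939, Scarb2 0.924, Irx3 0.913).

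The growth protocol names hearts of E17.5 and P1 only, and no label gives a hybridization or scan batch, so age and any difference in handling cannot be told apart for the adult arrays.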

How the data were processed

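The authors deposited log2 values per the file headers, as gene-level and exon-level tables of the same 12 samples, and per the submitters' processing notes they used RMA in Affymetrix Power Tools (versions not given in the sources used here). RMA corrects background, normalizes between arrays and summarizes probes, so signals are relative and carry no count depth; the 2 arrays per group limit the precision. The values were used as deposited.

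Symbols came from the platform annotation. No test used the 1621 clusters that carry more than 1 symbol or the 12146 that carry none. Of genes with several clusters the one with the highest mean was used. limma 3.58.1 in R 4.3.3 was fitted over all 12 arrays with 6 group means (6 residual and 6.2 prior degrees of freedom), for 7 comparisons, with Benjamini-Hochberg adjustment over 19920 genes in each. The splicing index required 4 probe sets per gene, the gene at or above the median in both groups and the probe set in at least 1. Probe sets identical to their gene (1847) were left out. The code was checked on simulated data.

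The 10 genes, the gene lists and the naming rule were chosen with earlier results of these data known. The naming rule took up to 5 called genes per list with the largest change and no overlap between arrays, in adult against E17.5 hearts and in cardiac against embryonic bodies, and for likeness the 3 genes with the highest r. Of 224 list entries 209 were measured. Replicate numbers were not used as pairs in the main fit. Over 15 pairs of groups the deviations from the group means correlated at -0.18 to 0.29. The 2 over 0.1 were E17.5 with P1 hearts (0.29) and ES cells with cardiac bodies (0.17). Whether the replicates of these groups shared handling was not tested. Alternatives were the replicate number as a block, a filter at the median, an added quantile step, limma's prior with a trend on intensity, averaging a gene's clusters, the median of the exon-level probe sets, and each array left out. For the splicing index, the filter was also dropped and the gene level also taken from the gene's other probe sets. Promoter windows are RefSeq's (GRCm38.p6), matched by symbol for 9 of the 10 genes. Figures used matplotlib 3.10.9 with pandas 2.3.3 and Python 3.11.15.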

Additional observations from a re-analysis of the deposited data

How the results depend on the processing

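Each of the 10 genes was refitted in 7 comparisons under 18 alternatives, 1260 values in all; 1207 stayed on their side of the threshold, 23 lost a call, 30 gained one and none reversed a called direction. Sign changes of values uncalled in both fits were counted among the 1207. Of the 24 calls 15 were never lost, among them all calls of Ppara, Ppard and Pparg and the adult rises of Rxrg. With the replicate number as a block the counts of called genes were 5 (adult against E17.5), 6 (adult against P1), 1 (P1 against E17.5), 4, 2, 1 and 5 (cardiac against embryonic bodies, cardiac bodies against ES cells, embryonic bodies against ES cells and cardiac bodies against E17.5 hearts), as without it, and 20 probe sets in place of 21 were called in the splicing index. The median of the exon-level probe sets called 0 of the 10 genes in P1 against E17.5 hearts in place of 1 and 1 in cardiac bodies against ES cells in place of 2, and it called Ppara in cardiac against embryonic bodies (1.47, limma adjusted p = 0.00435, against 0.18 at gene level). In embryonic bodies against ES cells 2 genes in place of 1 were called with the filter at the median and with quantile normalization, the added one being Rxrg. With no filter on level 1 probe set in place of 0 was called in cardiac bodies against ES cells.

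With single arrays left out, the count ran from 4 to 6 in adult against E17.5 hearts, 5 to 7 in adult against P1, 0 to 3 in P1 against E17.5, 1 to 4 in cardiac against embryonic bodies, 1 to 2 in cardiac bodies against ES cells, 1 to 2 in embryonic bodies against ES cells and 3 to 7 in cardiac bodies against E17.5 hearts. The splicing index gave 9 to 22 in adult against E17.5 hearts. The P1 count was 0 without either E17.5 array and 3 without P1 replicate 1, a fit in which 3056 genes were called in place of 1021. The count for cardiac against embryonic bodies was 1 without cardiac body replicate 1, where Rxrg (limma adjusted p = 0.0876), Ppargc1b (0.166) and Esrrg (0.0782) were lost. A group left with 1 array was assumed to vary like the others. The causes were not tested.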
